A study of Homo sapiens with 18 samples.

Results

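The zinc finger genes of human chromosome 19 were followed in Raji cells, an established Burkitt lymphoma B cell line, across 6 groups of RNA sequencing libraries. Members were all protein-coding genes on chromosome 19 whose symbol is ZNF with a number and at most 1 letter. The deposited count table of 60707 genes holds 247 of them, and 174 passed a filter on low counts that left 16474 genes to test. The series gives expression in Raji cells (genotype label Smarca4+/+) built for degradation of the SMARCA4 protein, the ATPase of the BAF chromatin remodelling complexes, by an auxin-inducible degron. Such a degron is a tag through which the plant hormone auxin directs a protein to the proteasome. The groups were GFP low and GFP high cells at 24 h, GFP low and GFP high cells at 48 h, and GFP low and GFP high cells at 72 h, with 3 libraries in each and 18 in all. All groups share the line and the genotype label. The sources used here leave unstated the role of GFP, the way both fractions were obtained, whether the line is 1 clone, what each group received and when the hours start. Some column names of the count table read GFPBRG1, with BRG1 another name of SMARCA4, without saying what GFP reports. No group is therefore described as having lost the protein.

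Libraries held 27257876 to 55419458 counts in genes. The column names put them into 3 library sets, called unnumbered, 1 and 2, with 1 library of every group in each set. The 6 B cell markers examined ran from 114 to 809 CPM (counts per 1000000 counts in genes, with TMM scaling) in all libraries, whereas no T cell marker passed 3.39 CPM and CD8A had no count. No myeloid marker passed 1.75 CPM and no epithelial marker passed 0.131 CPM. Mitochondrial genes took 3.48% to 3.64% of counts in GFP low against 4.27% to 4.62% in GFP high cells at 24 h, 2.87% to 2.95% in GFP low against 3.63% to 3.78% in GFP high cells at 48 h, and 3.81% to 3.98% in GFP low against 2.67% to 2.79% in GFP high cells at 72 h. Summed over the list, 5 T cell markers reached 1.71 to 2.33 CPM in GFP low against 4.13 to 4.98 CPM in GFP high cells at 24 h, and 4 myeloid markers 2.13 to 2.42 CPM in GFP low against 0.762 to 0.991 CPM in GFP high cells. The part of these differences in the results below was not tested. SMARCA4 mRNA was itself higher in GFP low cells at 24 h (log2 fold change 0.50), 48 h (0.11) and 72 h (0.20), which does not check its protein. Nothing in the labels tells separate cultures from repeat libraries of 1 culture, so the p-values refer to the spread among these 18 libraries, which may be technical.

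Zinc finger proteins of the C2H2 type bind DNA through rows of fingers, each of which folds around a zinc ion held by a pair of cysteines and a pair of histidines. In many of them a KRAB domain at the start of the protein recruits TRIM28, which brings the histone methyltransferase SETDB1 and HP1 proteins and so lays down H3K9 trimethylation, a repressive mark. These proteins are best known for silencing transposable elements. The family grew by repeated gene duplication, which left its members in tandem clusters, and chromosome 19 carries the largest share of them in humans. Their own 3′ exons carry H3K9 trimethylation, which ZNF274 and ATRX help to keep.

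The members fell into the known tandem arrangement. With neighbours under 1 Mb apart and at least 5 genes required, 236 of the 247 lay in 9 clusters and 11 lay outside. The largest, cluster 9, held 59 members between 55476617 and 58481230 on chromosome 19 (hg38), from ZNF628 to ZNF446. Cluster 8 held 39 members, from ZNF175 to ZNF331, cluster 4 held 37, from ZNF101 to ZNF254, and cluster 6 held 27, from ZNF565 to ZNF573. Translated from GENCODE release 29, 204 of 246 proteins carried a KRAB signature, a pattern of conserved residues that finds most but not all such domains, and the median protein had 12.5 C2H2 fingers. Among tested members the range ran from 0 fingers in ZNF738 to 32 in ZNF91, a repressor of SVA retrotransposons.

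Exons of the tested members summed to a median length of 5639.5 bases, close to the 5290.5 bases of the 11096 other protein-coding genes tested. Their exons were poorer in G and C, with a median GC content of 42.1% against 48.0%. The sequences are repetitive within the family. In 95 of 247 members at least 5% of the 50-base stretches also occurred in another gene, and 143 members overlapped an exon of another gene, so that reads of these members may be shared or lost in ways that the counting settings decide.

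Promoters are shown for 3 members with a shared motif that stand among the larger changes at 24 h and for ZNF581, which moved the other way. The 3 were chosen for the motif and ZNF581 without regard to it, so the contrast between them follows from the choice. With a trend on exon length removed, the log2 fold change of ZNF581 was 0.027. Windows of 250 bases before to 50 bases after the annotated start came from RefSeq (GRCh38.p14), which held 268 windows for 216 members. Capitals mark CCGGAAG or its reverse complement, a core bound by ETS factors. The windows are chr19:9768689-9768988, minus strand, for ZNF846, chr19:53159004-53159303, minus strand, for ZNF347, chr19:23395422-23395721, minus strand, for ZNF91, and chr19:55643399-55643698, plus strand, for ZNF581.
ZNF846: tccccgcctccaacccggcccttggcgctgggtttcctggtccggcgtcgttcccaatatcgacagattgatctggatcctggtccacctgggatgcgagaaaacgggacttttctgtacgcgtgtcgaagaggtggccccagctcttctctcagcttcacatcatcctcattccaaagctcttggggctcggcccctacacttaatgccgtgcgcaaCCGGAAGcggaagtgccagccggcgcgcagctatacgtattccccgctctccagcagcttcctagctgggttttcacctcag
ZNF347: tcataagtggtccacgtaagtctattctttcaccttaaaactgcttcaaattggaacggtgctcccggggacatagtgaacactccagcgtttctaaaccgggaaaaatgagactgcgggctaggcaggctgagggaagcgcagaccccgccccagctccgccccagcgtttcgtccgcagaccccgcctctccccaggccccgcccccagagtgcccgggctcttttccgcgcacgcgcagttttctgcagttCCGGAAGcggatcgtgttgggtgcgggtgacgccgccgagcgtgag
ZNF91: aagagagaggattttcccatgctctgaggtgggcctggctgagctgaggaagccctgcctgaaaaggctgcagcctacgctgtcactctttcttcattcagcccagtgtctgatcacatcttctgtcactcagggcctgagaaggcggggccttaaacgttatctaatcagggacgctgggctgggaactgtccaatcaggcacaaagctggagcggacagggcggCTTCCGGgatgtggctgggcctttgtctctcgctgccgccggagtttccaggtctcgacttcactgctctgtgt
ZNF581: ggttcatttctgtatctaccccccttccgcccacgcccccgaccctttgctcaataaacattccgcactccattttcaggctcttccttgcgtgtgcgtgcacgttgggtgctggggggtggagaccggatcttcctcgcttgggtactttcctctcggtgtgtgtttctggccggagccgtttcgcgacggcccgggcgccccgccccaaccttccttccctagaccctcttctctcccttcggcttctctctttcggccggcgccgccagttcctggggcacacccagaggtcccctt

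The motif CCGGAAG stood on either strand in 40.7% of the members' windows. It stood in 10.3% of all 35116 windows, 17.5% of those of other tested protein-coding genes and 32.3% of those of tested ZNF genes on other chromosomes. AACTACA, the start of the site of the activator ZNF143, stood in 15.7% of members' windows, 3.19% of all and 6.19% of those of tested ZNF genes elsewhere. In the same order ATTGG, the inverted CCAAT box, stood in 50%, 34.6% and 41.6%, and TATAAA, the TATA box, in 2.61%, 11.5% and 5.31%. The E box CACGTG stood in 4.48%, 7.26% and 6.64%. In windows of other tested protein-coding genes these motifs stood in 3.37%, 35.7%, 6.42% and 9.66%. The median window held 20 CG pairs in members and 14 in all windows. It held 25 in other tested protein-coding genes and 24 in tested ZNF genes elsewhere. Both strands were searched, no motif is contained in another, and a match describes a window and is no measure of binding. The ETS core did not go with the direction of change at 24 h: among 77 tested members with it 41 rose, 3 fell and the median log2 fold change was 0.22, while among 82 without it 42 rose, 4 fell and the median was 0.23.

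Levels in Raji cells ranged widely. Per kilobase of exon the median tested member stood at 2.23 CPM, against 6.26 CPM for other tested protein-coding genes. ZNF146, a protein made almost wholly of fingers, was the most abundant at 46.8 CPM per kilobase. After it came ZNF581 at 24.1, ZNF121 at 23.6, ZNF460 at 20.5, ZNF317 at 13.3, ZNF428 at 12.3, ZNF296 at 12.3 and ZNF587, a repressor of HERV-K elements, at 11.2 CPM per kilobase, all as means over the 18 libraries. ZNF581 and ZNF121, and ZNF428 and ZNF296, differed by less than the range of either over the libraries. ZNF146 was read at 233, 234 and 223 CPM in GFP low against 198, 197 and 188 CPM in GFP high cells at 24 h.

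The remaining 73 members were too low to test, and 22 of them had no count in any library. Over the 18 libraries together 3 counts would be 0.00437 CPM, which is the upper limit that a count of 0 allows, for counting error only. Of the 73, 38 stood in 7 runs of at least 3 neighbouring members, and the other 35 did not. In cluster 7 only 8 of 24 members were tested, and 9 in a row, ZNF221, ZNF155, ZNF230, ZNF222, ZNF223, ZNF284, ZNF224, ZNF225 and ZNF234, had means of up to 0.00351 CPM. A further 4 in the same cluster, ZNF233, ZNF112, ZNF285 and ZNF229, had means of up to 0.00196 CPM. In cluster 4 a run of 9, from ZNF208 to ZNF728, had means of up to 0.0344 CPM, while ZNF91 in the same cluster reached 84.9 CPM in 1 GFP low library at 24 h. Runs of 5 stood in cluster 8 (ZNF610 to ZNF578) and cluster 9 (ZNF418 to ZNF329). These genes were chosen after their values were seen, and a low level in 1 cell line is no statement on other cells.

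The first comparison asked how GFP low and GFP high cells differed at 24 h. As a group the chromosome 19 zinc finger genes stood higher in GFP low cells. Of 174 tested, 88 rose and 7 fell by edgeR's quasi-likelihood test at an adjusted p under 0.05, beside 29.3% of all tested genes that rose and 28.5% that fell (57.9% either way). The members' shares were 50.6% and 4.02%. Their median log2 fold change was 0.22, against 0.03 over all genes tested, and 146 of 174 values were above 0. Among 6441 other protein-coding genes of similar exon length (3228.3 to 9085.4 bases), 34.6% rose and 33.9% fell, with a median of 0.02. The other 680 protein-coding genes of chromosome 19 had 219 that rose and 193 that fell, with a median of 0.03. The pattern was not particular to the chromosome, since of 200 ZNF genes elsewhere 119 rose and 22 fell, with a median of 0.21.

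The changes were small. Members that rose did so by a median of 1.28-fold, and 8 of the 88 reached 1.5-fold. Summed over all 247 members the level was 3478.7 ± 47.3 CPM in GFP low against 3007.7 ± 20.2 CPM in GFP high cells at 24 h (SD, n = 3 each), a ratio of 1.16. The GFP low libraries at 24 h, at 3427 to 3520 CPM, lay above all other 15 libraries, which spanned 2990.5 to 3180 CPM. At 48 h the sums were 3124.6 CPM in GFP low and 3152.4 CPM in GFP high cells, and at 72 h they were 3128.4 CPM in GFP low and 3080.7 CPM in GFP high cells. In bulk RNA, fewer cells that express a gene and less of its RNA per cell cannot be told apart.

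**Figure D1:**
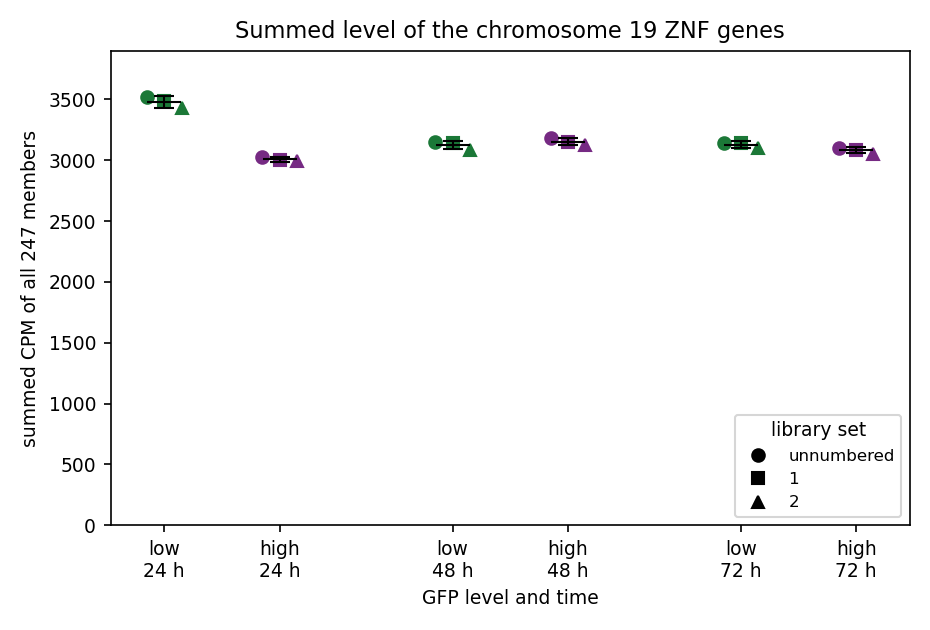
Summed CPM of all 247 members in each library (points, shaped by library set), with the mean and SD of each group of 3. The 3 GFP low libraries at 24 h, at 3427 to 3520 CPM, stand above all others.

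**Figure D2:**
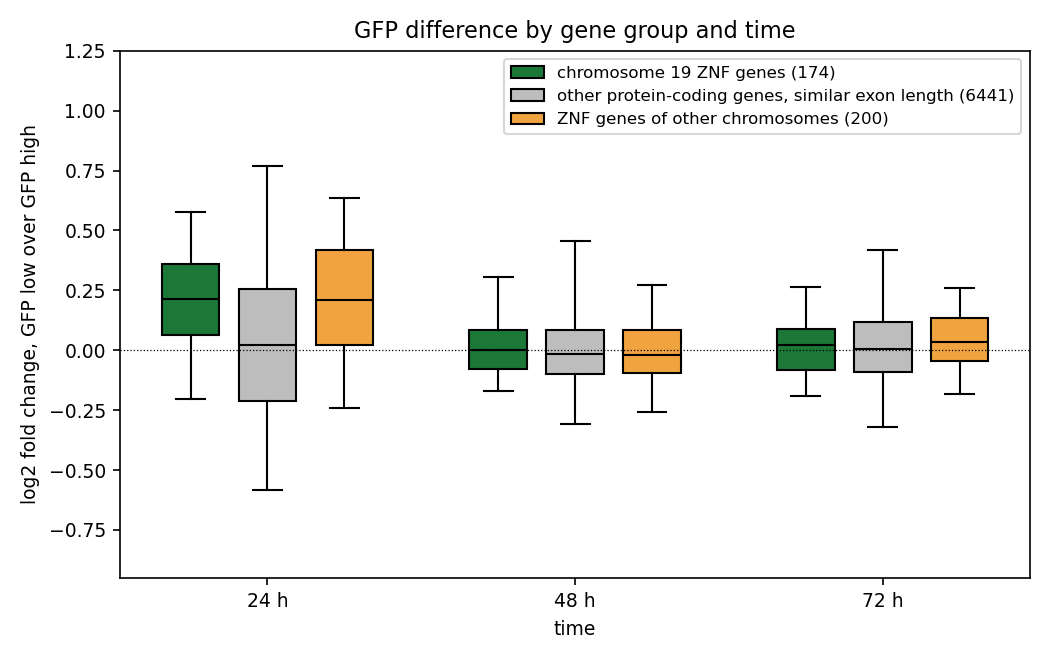
Log2 fold change of GFP low over GFP high cells at each time for members, for other protein-coding genes of similar exon length and for ZNF genes of other chromosomes. Boxes span the quartiles with the median as a line, and whiskers reach the 5th and 95th percentiles over genes. Members had medians of 0.22, 0.00 and 0.02 at 24, 48 and 72 h.

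Among members of at least 1 CPM the largest rise was that of ZNF546 (ENSG00000187187.14, chromosome 19, 39984134 to 40021038, plus strand), which encodes 22 fingers and lies outside the clusters. It was read at 7.82, 6.69 and 7.08 CPM in GFP low against 4.03, 4.28 and 3.98 CPM in GFP high cells. The groups did not overlap, and the log2 fold change was 0.81 ± 0.09 (SE, adjusted p = 3.33e-08, edgeR). ZNF699 (ENSG00000196110.8, 9291140 to 9309838, minus strand, cluster 2), whose loss causes the DEGCAGS syndrome in humans, had 4.75, 4.07 and 3.92 CPM in GFP low against 2.24, 2.49 and 2.79 CPM in GFP high cells. Its groups were also apart, with a log2 fold change of 0.74 ± 0.12 (adjusted p = 2.43e-05, edgeR). ZNF347 of cluster 8 had 18.6, 14.98 and 16.1 CPM in GFP low against 10.3, 11.1 and 11.4 CPM in GFP high cells at 24 h, a log2 fold change of 0.59.

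ZNF846 (log2 fold change 0.60) and ZNF556 (0.59) ranked between ZNF699 and ZNF347, and after ZNF347 came ZNF792 (0.57), ZNF558 (0.56), ZNF791 (0.55), ZNF44 (0.55) and ZNF446 (0.55). ZNF558 is a repressor of the mitophagy gene SPATA18. ZNF446 shares 35.4% of its 50-base stretches with other genes, and its call was lost without the GFP high library of set 2 (adjusted p = 0.0625) or the GFP low library of set 2 (adjusted p = 0.0548). Of the 12 tested members under 1 CPM, ZNF763, chosen after its values were seen, had the largest fitted change: it was read at 0.331, 0.492 and 0.267 CPM in GFP low against 0.0339, 0.0586 and 0.0748 CPM in GFP high cells. So near the floor in GFP high cells, ZNF763 passed the filter through other libraries, which favours a large change.

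Abundant members with known roles were among those that rose. ZNF91 (ENSG00000167232.14, 23304991 to 23395471, minus strand, cluster 4) had 84.9, 83.6 and 78.3 CPM in GFP low against 57.9, 56.2 and 56.4 CPM in GFP high cells at 24 h. The groups did not overlap, and the log2 fold change was 0.53 ± 0.04 (adjusted p = 7.55e-10, edgeR). ZNF473, a part of the U7 machinery that trims histone pre-mRNA, had 51.0, 51.6 and 51.8 CPM in GFP low against 37.3, 35.7 and 36.2 CPM in GFP high cells. Its log2 fold change was 0.50 ± 0.04. ZNF587 differed by 0.50 ± 0.03, ZNF146 by 0.24 ± 0.03 and ZNF317 by 0.28 ± 0.03, and all 3 passed the test.

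ZNF274 (ENSG00000171606.18, 58183029 to 58213562, plus strand, cluster 9) recruits SETDB1 to the 3′ exons of other zinc finger genes. It had 17.9, 15.9 and 17.3 CPM in GFP low against 13.6, 13.8 and 13.9 CPM in GFP high cells at 24 h, and the groups did not overlap. Its log2 fold change was 0.31 ± 0.06 (adjusted p = 0.000205, edgeR), and 0.18 once a trend on exon length was removed. At 48 h it stood at -0.13 ± 0.06 (adjusted p = 0.157), a call only where a block on library set was added (adjusted p = 0.0367), and at 72 h at 0.06 ± 0.06 (adjusted p = 0.545).

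The 7 members that fell at 24 h were ZNF581, ZNF576, ZNF726, ZNF586, ZNF584, ZNF428 and ZNF627. ZNF581 (ENSG00000171425.10, 55635459 to 55645623, plus strand, cluster 9) had 30.4, 29.5 and 32.3 CPM in GFP low against 38.03, 37.97 and 43.7 CPM in GFP high cells, a log2 fold change of -0.38 ± 0.06. ZNF581 and ZNF428 have short exons, at 1635 and 1553 bases in all, and neither carries a KRAB signature. Once the length trend was removed ZNF581 stood at 0.027 (adjusted p = 0.663, edgeR) and ZNF428 at 0.22 in place of -0.20, and ZNF584 at -0.088 (adjusted p = 0.131) and ZNF627 at -0.089 (adjusted p = 0.378) were no longer called. ZNF576, ZNF726 and ZNF586 kept their calls, at -0.19, -0.38 and -0.22. ZNF428 also lost its call without the GFP high library of set 2 (adjusted p = 0.317) or the GFP low library of set 1 (adjusted p = 0.158). The groups of ZNF627 overlapped, at 7.36, 8.75 and 6.94 CPM in GFP low against 8.16, 9.62 and 8.49 CPM in GFP high cells. Its call was lost without the GFP high library of set 1 (adjusted p = 0.254), the GFP low library of set 2 (0.26) or the unnumbered GFP low library (0.117).

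**Figure D3:**
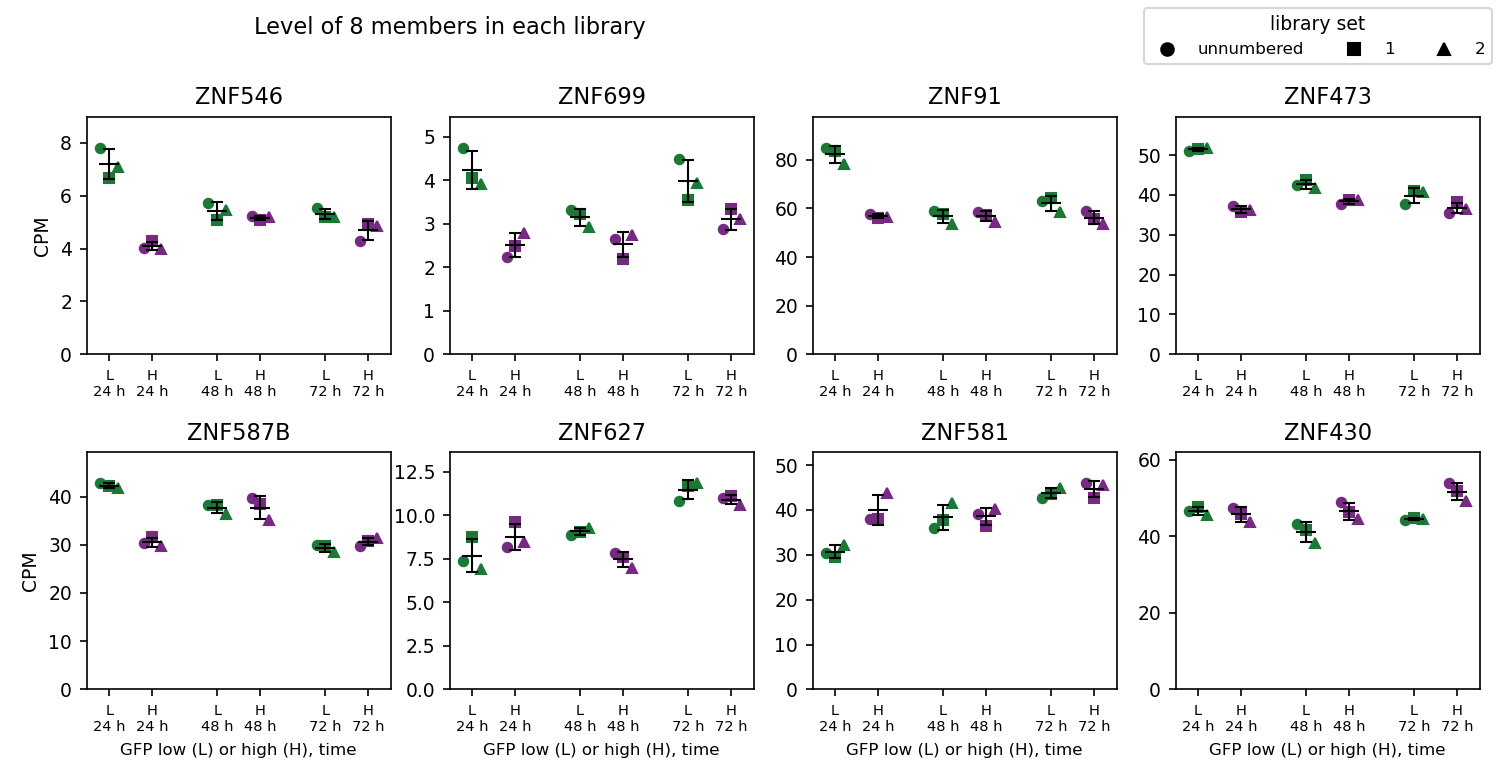
CPM of 8 members in each library, in GFP low (L, green) and GFP high (H, purple) cells at 24, 48 and 72 h, with the mean and SD of each group of 3; point shapes give the library set. ZNF546, ZNF699, ZNF91 and ZNF473 have their highest mean in GFP low cells at 24 h and ZNF581 its lowest, and ZNF587B is lower at 72 h than at 48 h in both fractions.

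Every cluster had a median above 0 at 24 h. The counts by cluster stand beside 29.3% of all tested genes that rose and 28.5% that fell. In cluster 2, 10 of 12 tested members rose and none fell, and in cluster 8, 19 of 27 rose and none fell. Their medians were 0.31 and 0.26. In cluster 6, 10 of 21 rose, none fell and the median was 0.24. Cluster 9 had the lowest share, with 13 of 44 that rose, 3 that fell and a median of 0.12. Its share that rose was near that of all tested genes. In cluster 4, 13 of 28 rose and 1 fell, and in cluster 3, 8 of 19 rose and 1 fell. Of the 8 tested members outside the clusters 6 rose. The largest change of each cluster among members of at least 1 CPM was ZNF556 in cluster 1, ZNF699 in 2, ZNF791 in 3, ZNF626 in 4, ZNF792 in 5, ZNF793 in 6, ZNF180 in 7, ZNF347 in 8 and ZNF446 in 9, and all of them rose. Differences between clusters were not tested.

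**Figure D4:**
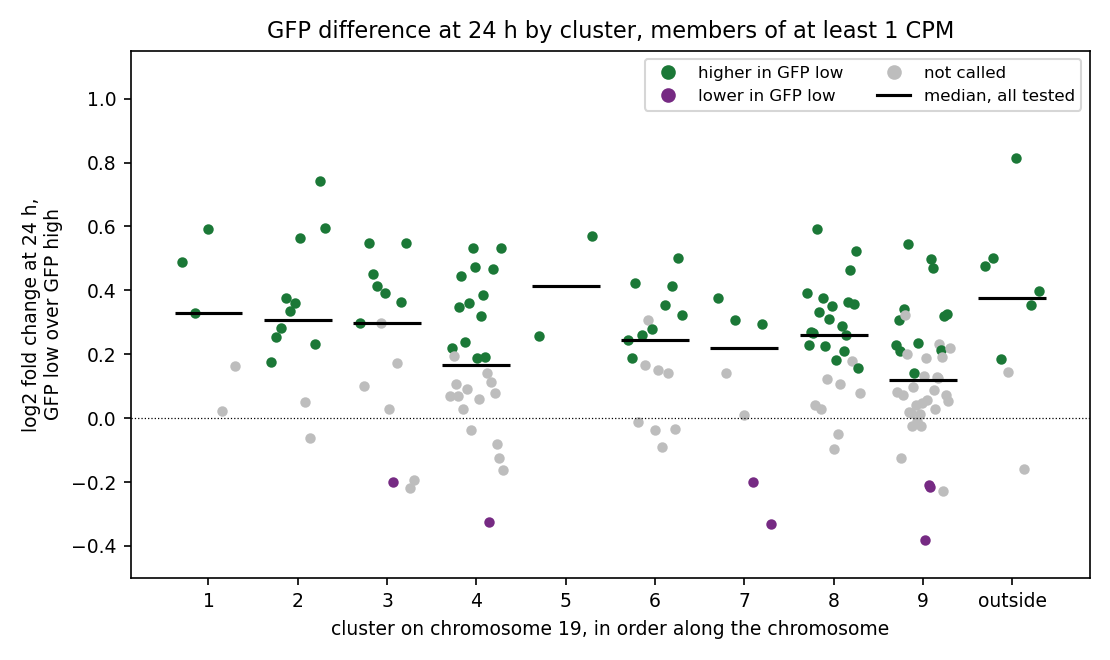
Log2 fold change of GFP low over GFP high cells at 24 h for the 162 members of at least 1 CPM, by cluster in order along chromosome 19. Black lines give the median over all tested members of the cluster, 0.12 in cluster 9 and 0.31 in cluster 2, and all lines lie above 0.

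Neighbouring genes could differ. ZNF586 and ZNF587B follow each other on the plus strand of cluster 9, at 57769655 to 57819939 and 57819721 to 57846238, so that their ends overlap. At 24 h ZNF586 had 27.9, 28.7 and 27.8 CPM in GFP low against 33.9, 31.5 and 32.5 CPM in GFP high cells, a log2 fold change of -0.21 ± 0.04. ZNF587B had 42.8, 42.1 and 41.8 CPM in GFP low against 30.3, 31.6 and 29.7 CPM in GFP high cells, a log2 fold change of 0.47 ± 0.04. Both groups were apart in both genes, in opposite directions. ZNF587B shares 20.5% of its 50-base stretches with other genes, and its split from ZNF587, the next gene, is uncertain.

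Members with and without a KRAB signature had like counts at 24 h: 73 of 141 members with it rose, 4 fell and the median was 0.23, while 14 of 32 without it rose, 3 fell and the median was 0.18. That difference was not tested. The 53 members with no exon overlap and under 5% of shared stretches had 29 that rose and 1 that fell, with a median of 0.22. Shared stretches were sought in the longest transcript of each member only, and the counting settings are unknown. The part of read placement in the pattern was not tested.

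Exon length moved with the difference at 24 h in members and in other genes alike. The members with the shortest exons, up to 3718.2 bases, had 5 of 35 that rose, 4 that fell and a median of 0.11, while other protein-coding genes of that length had a median of -0.25. Among the longest, over 7583 bases, 24 of 35 members rose and none fell, with a median of 0.32 against 0.19 in other genes. In between, members had medians of 0.21, 0.26 and 0.26, against -0.07, 0.02 and 0.10 in other genes. Spearman's rho between exon length and the log2 fold change was 0.30 over the 174 members and 0.40 over 11096 other genes, as a description across genes measured in the same libraries. With a trend on exon length removed, 100 members rose and 5 fell, beside 37.6% and 24.0% of all genes, and the members' median was 0.22 where that of all genes was 0.12.

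**Figure D5:**
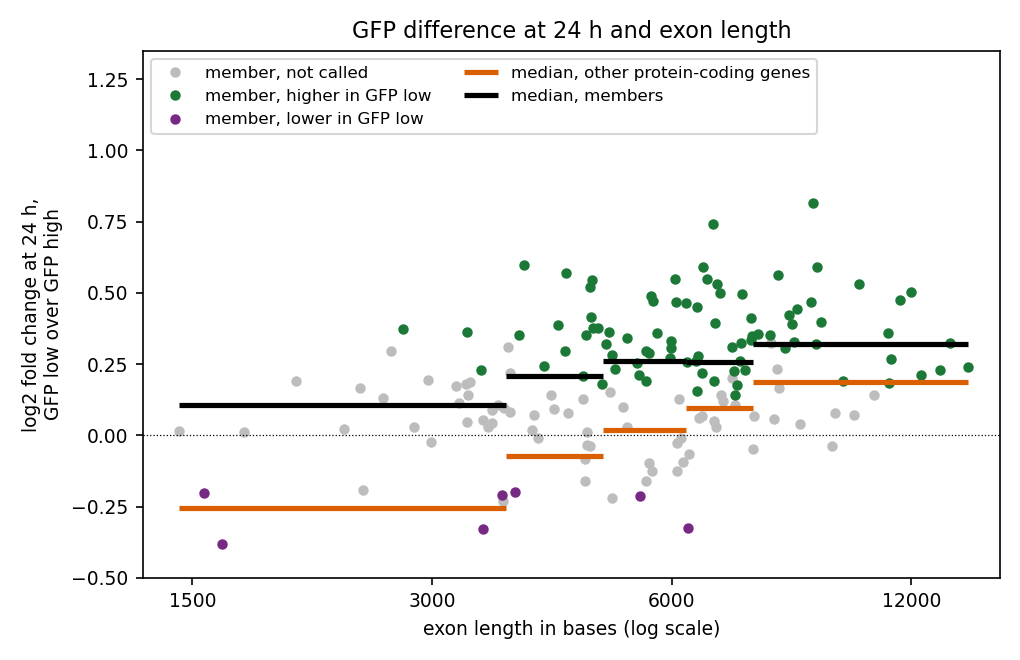
Log2 fold change at 24 h against exon length on a log axis for the 162 members of at least 1 CPM. Horizontal lines give the medians of all tested members (black) and of other protein-coding genes (orange) in 5 bins of exon length; the black lines, at 0.11 to 0.32, lie above the orange ones, at -0.25 to 0.19.

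The genes through which KRAB proteins act were described as a list of 25, of which 24 were tested. At 24 h 13 rose and 8 fell, which is 54.2% and 33.3%, beside 29.3% and 28.5% of all tested genes, and the median was 0.13. The list was not matched for exon length, which moved with the difference at 24 h. Exons in it summed to 3044 bases in CBX1 and up to 22740 bases in ATRX. The part of exon length in these counts was not tested. The HUSH silencing complex was split, since MPHOSPH8 (0.57 ± 0.04) and TASOR (0.24 ± 0.03) rose and PPHLN1 fell by 0.35 ± 0.04. A rise was also seen in the H3K9 reader and remodeller ATRX (0.49 ± 0.03), in the SETDB1 partner ATF7IP (0.36 ± 0.03) and in the DNA methyltransferase DNMT1 (0.36 ± 0.03). Of the HP1 genes CBX3 fell by 0.59 ± 0.03 and CBX5 fell by 0.18 ± 0.02, while CBX1 rose (0.17 ± 0.03). The H3K9 methyltransferases were split: SUV39H1 and SUV39H2 fell by 0.51 ± 0.06 and 0.54 ± 0.04, while EHMT1 (0.40 ± 0.04) and EHMT2 (0.21 ± 0.04) rose. The deacetylases HDAC1 and HDAC2 fell by 0.30 ± 0.02 and 0.38 ± 0.03. CHD3 (0.46 ± 0.03), ADNP (0.25 ± 0.02), MORC2 (0.21 ± 0.03) and SMARCAD1 (0.17 ± 0.03) also rose. EHMT2 and MORC2 turned in sign once length and GC trends were removed together with a block on library set.

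TRIM28, the partner of the KRAB domain, was at 425.6 ± 17.4 CPM in GFP low against 470.7 ± 27.2 CPM in GFP high cells (SD, n = 3 each), a log2 fold change of -0.15 ± 0.04 (adjusted p = 0.00833, edgeR). Without a length trend that value was -0.07 (adjusted p = 0.102), and without the GFP high library of set 2 it was -0.10 (adjusted p = 0.0678). SETDB1 stood at 62.9 ± 2.11 CPM in GFP low against 58.7 ± 0.66 CPM in GFP high cells, a log2 fold change of 0.10 ± 0.04 (adjusted p = 0.0255). Its call was lost without the GFP high library of set 1 (adjusted p = 0.0571), the GFP low library of set 1 (0.0724) or the unnumbered GFP low library (0.0788), and its value was -0.013 once length and GC trends were removed. Of the 24 listed genes 2 rose and 5 fell at 48 h (8.33% and 20.8%, beside 10.6% and 13.2% of all tested genes), and 5 rose and 5 fell at 72 h (20.8% each way, beside 12.9% and 13.5%).

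At 48 h few members differed between the fractions. Of 174 members 10 rose and 7 fell, beside 10.6% and 13.2% of all tested genes, and the members' median was 0.00. Either way 23.8% of all genes passed. A block on library set gave 17 that fell, where 19.7% of all genes fell. Without the GFP high library of set 2 the counts were 6 and 4, beside 10.1% and 9.67% of all genes. Without the unnumbered GFP low library 6 rose, beside 9.33%, and without the GFP low library of set 2, 2 fell, beside 9.29%. ZNF566 had 19.01, 19.3 and 18.2 CPM in GFP low against 15.3, 15.7 and 14.4 CPM in GFP high cells, a log2 fold change of 0.32 ± 0.05 (adjusted p = 7.85e-05, edgeR). ZNF460, the fourth member by level, had 79.7, 82.4 and 79.4 CPM in GFP low against 86.7, 91.3 and 88.4 CPM in GFP high cells, a log2 fold change of -0.14 ± 0.03 (adjusted p = 0.00202, edgeR). In both genes the groups were apart.

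At 72 h 14 members rose and 7 fell, beside 12.9% and 13.5% of all tested genes (26.4% either way), with a median of 0.02. A block on library set gave 24 that rose and 16 that fell, where 18.5% and 18.2% of all genes did. The count that rose was 9 without the GFP high library of set 1 or the unnumbered GFP low library, and 6 without the GFP high or GFP low library of set 2. The count that fell was 4 without the GFP high or GFP low library of set 1, and 3 without the unnumbered GFP high library. Over all genes 9.32% to 11.5% rose and 10.04% to 12.4% fell without any 1 library of this comparison. ZNF738, which has a KRAB signature and no finger in its translated product, had 11.8, 12.2 and 11.9 CPM in GFP low against 9.77, 9.60 and 9.08 CPM in GFP high cells, a log2 fold change of 0.34 ± 0.07 (adjusted p = 0.000635, edgeR). ZNF580 stood 0.39 ± 0.09 higher and ZNF808, a repressor of MER11 elements needed for pancreas development, 0.18 ± 0.04 higher.

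ZNF430 and ZNF506 of cluster 4 fell at 72 h. ZNF430 had 44.3, 44.8 and 44.4 CPM in GFP low against 53.9, 51.9 and 49.3 CPM in GFP high cells, a log2 fold change of -0.21 ± 0.05 (adjusted p = 0.0014, edgeR). ZNF506 had 23.4, 23.6 and 21.2 CPM in GFP low against 26.8, 28.2 and 26.9 CPM in GFP high cells, a log2 fold change of -0.27 ± 0.05. Neither differed at 24 h past the test, with 0.03 ± 0.05 and -0.04 ± 0.05, although ZNF506 passed there, at -0.19, once the length trend was removed.

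Only ZNF101, ZNF473 and ZNF791 rose at all 3 times, and no member fell at all 3. ZNF101 had 59.3, 60.3 and 60.2 CPM in GFP low against 50.4, 52.4 and 51.5 CPM in GFP high cells at 24 h. At 48 h it had 71.0, 73.3 and 69.9 CPM in GFP low against 64.5, 63.2 and 61.5 CPM in GFP high cells. At 72 h it had 67.3, 68.1 and 65.8 CPM in GFP low against 62.2, 59.4 and 55.5 CPM in GFP high cells. Its groups never overlapped, and the log2 fold changes were 0.22, 0.18 and 0.19, each ± 0.04 or less. ZNF473 differed by 0.50, 0.15 and 0.12 and ZNF791 by 0.55, 0.18 and 0.16. The last value of ZNF791 lost its call without the GFP high library of set 1 (adjusted p = 0.0544), the GFP high library of set 2 (0.111) or the unnumbered GFP low library (0.0665). In all, 65 of 174 members passed at none of the 3 times. Such patterns were not counted over all genes, so these counts are not read as particular to the members. Either way 57.9%, 23.8% and 26.4% of all tested genes passed at 24, 48 and 72 h.

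Whether the GFP difference itself changed was tested as an interaction. From 24 to 48 h it moved downwards in 71 members and upwards in 6, beside 21.4% and 22.1% of all tested genes (43.5% either way), with a median change of -0.20 against -0.02 over all genes. Under the block on library set it moved upwards in 10, where it did in 26.1% of all genes. ZNF546 changed by -0.74 ± 0.12, since its fractions stood at 5.75, 5.07 and 5.47 CPM in GFP low against 5.23, 5.07 and 5.18 CPM in GFP high cells at 48 h. ZNF44 changed by -0.69 ± 0.10, ZNF793 by -0.55 ± 0.10 and ZNF441 by -0.55 ± 0.09. From 48 to 72 h 6 members changed upwards and 1 downwards, beside 5.19% and 3.83% of all genes (9.02% either way). Under the block these were 14 and 3, beside 11.7% and 8.52% of all genes. The upward count was 3 without the GFP high library of set 1 or set 2 at 48 h, the unnumbered GFP low library at 48 h or the GFP low library of set 2 at 72 h, and the downward count was 0 without the GFP high library of set 2 at 48 h. Over all genes 3.43% to 4.83% changed upwards and 2.75% to 3.80% downwards without any 1 library of this comparison.

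Time comparisons within a fraction share their libraries with the GFP comparisons and are given for their own values. In GFP low cells 11 members rose and 71 fell at 48 h against 24 h, beside 25.7% and 25.1% of all tested genes (50.8% either way), with a median of -0.16 against 0.02 over all genes. The 6441 genes of similar exon length had 1919 that rose and 2207 that fell. ZNF554 (ENSG00000172006.12, 2819868 to 2836735, plus strand, cluster 1) fell the most among members of at least 1 CPM, with 4.16, 4.69 and 4.08 CPM at 48 h against 8.12, 6.95 and 7.02 CPM at 24 h. Its log2 fold change was -0.77 ± 0.10 (adjusted p = 5.41e-07, edgeR). ZNF91 fell by 0.53 ± 0.04 to 59.1, 57.6 and 53.8 CPM, and ZNF333 fell by 0.52 ± 0.07. ZNF586 rose by 0.41 ± 0.04, with 37.8, 37.9 and 36.7 CPM at 48 h against 27.9, 28.7 and 27.8 CPM at 24 h.

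In GFP high cells 23 members rose and 2 fell at 48 h against 24 h, beside 10.6% and 9.97% of all tested genes (20.6% either way), with a median of 0.04. The block on library set gave 38 and 5, beside 15.3% and 17.4% of all genes. Without the GFP high library of set 1 at 24 h 14 rose and 0 fell, and without that of set 2 at 24 h 13 rose and 1 fell. The 2 that fell, ZNF554 and ZNF627, were 1 without the unnumbered library at 24 h or that of set 2 at 48 h, and 0 without that of set 1 or the unnumbered one at 48 h. Over all genes 7.56% to 8.36% rose and 7.22% to 9.10% fell without any 1 library of this comparison. ZNF44 rose by 0.33 ± 0.07, with 12.9, 11.6 and 11.4 CPM at 48 h against 9.96, 8.71 and 9.76 CPM at 24 h, and ZNF587B rose by 0.30 ± 0.04. Of the 23 that rose, 22 carried a KRAB signature, as did 141 of the 174 tested.

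From 48 to 72 h neither fraction moved in 1 direction. In GFP high cells 14 members rose and 17 fell at 72 h against 48 h, beside 13.7% and 14.2% of all tested genes (27.8% either way). Under the block 24 rose, beside 20.01% of all genes. The count that rose was 8 without the GFP high library of set 1 at 48 h or at 72 h, 6 without that of set 2 at 48 h and 5 without the unnumbered one at 72 h. Over all genes 10.6% to 11.7% rose without any 1 library of this comparison. In GFP low cells 14 rose and 10 fell, beside 13.9% and 12.5% (26.4% either way), and under the block 23 rose and 16 fell, beside 20.9% and 17.5% of all genes. Without any 1 of the 6 GFP low libraries of 48 and 72 h, 6 to 9 rose: 6 without the unnumbered and 7 without the set 1 library at 48 h, 7 without the unnumbered library at 72 h, and 9 without each of the other 3. Over all genes 10.3% to 11.2% then rose.

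ZNF627 (ENSG00000198551.10, 11559374 to 11619161, plus strand, cluster 3) rose from 48 to 72 h in both fractions. In GFP high cells it had 11, 11.1 and 10.6 CPM at 72 h against 7.84, 7.59 and 6.98 CPM at 48 h, a log2 fold change of 0.55 ± 0.08 (adjusted p = 2.17e-05, edgeR). In GFP low cells it had 10.8, 11.7 and 11.8 CPM at 72 h against 8.86, 9.05 and 9.29 CPM at 48 h, a log2 fold change of 0.34 ± 0.08 (adjusted p = 0.00228, edgeR). ZNF587B went the other way, with 29.8, 30.8 and 31.3 CPM at 72 h against 39.6, 38.4 and 35.2 CPM at 48 h in GFP high cells, a log2 fold change of -0.29 ± 0.04. In GFP low cells it had 29.9, 29.8 and 28.5 CPM at 72 h against 38.3, 38.3 and 36.4 CPM at 48 h, a log2 fold change of -0.36 ± 0.04. In both genes the groups compared did not overlap.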

How the data were processed

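RNA sequencing counts of 18 Raji libraries were used, 3 in each of 6 groups. The authors deposited raw counts, whole numbers of reads for each gene with no normalization, in a table laid out like featureCounts output, per the file headers. Per the labels, RNA was taken up on RNeasy Plus Micro columns, and ribosomal RNA was depleted with RiboErase in the KAPA RNA HyperPrep library kit. The submitters' processing notes name hg38, STAR, Subread with featureCounts, FastQC and R 4.2.1, with no role for each. The annotation release, strand setting and treatment of multiply matching reads were not given in the sources used here. Positions (hg38) were taken from the deposited table. Columns name day, GFP level and library set but no replicate title; days 1, 2 and 3 were read as 24, 48 and 72 h. Of 60707 genes read, 60462 had a symbol and 58439 a type in GENCODE release 29; 16 further chromosome 19 genes with a ZNF number were not protein-coding and were left out, and ANK2, whose entry is broken, was not used.

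Counts were fitted with edgeR 4.0.16 in R 4.3.3 (filterByExpr, TMM factors, quasi-likelihood F tests on 6 group means with 12 residual degrees of freedom, 2-sided), with Benjamini-Hochberg adjustment over all 16474 genes, and a gene was called under 0.05. A common biological coefficient of variation of 3.49% let small differences pass. Each SE was the size of the log2 fold change divided by the root of its F value. "Rose" and "fell" are for called genes, GFP low over GFP high or later over earlier. The fits were tested on simulated data. Interval and floor statements cover counting error only. Libraries of a group differed beyond sampling noise. The library set paired the libraries: deviations from group means correlated at 0.103 to 0.309 over the 45 same-set pairs, and 18 of 18 libraries correlated best with their own set.

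Members, lists and tests were chosen with earlier results of these data known. Named members had a mean of at least 1 CPM and were up to 10 called in each direction per GFP comparison and up to 5 per other comparison by absolute log2 fold change, the 8 highest per exon length, the largest change at 24 h of each cluster, the extremes of each sequence feature, and ZNF274. Alternatives were DESeq2 1.42.0, its kind of size factors (RLE), no filter, the library set as a block, trends on exon length and GC removed, only the groups compared, and leaving out each library.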

Additional observations from a re-analysis of the deposited data

Results flagged for a closer look

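The interaction of GFP level with time was past the test for the members named here, so the GFP difference was not the same at both times compared. Changes are given as log2 values, the later difference minus the earlier.

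From 24 to 48 h it moved upwards in 6 members and downwards in 71 of 174, beside 22.1% and 21.4% of all tested genes. Upwards moved ZNF627 (0.49), ZNF581 (0.38), ZNF576 (0.33), ZNF726 (0.31) and ZNF586 (0.22). With the length trend removed ZNF581 stood at -0.032 and ZNF576 at 0.20, where it missed the test (adjusted p = 0.088, edgeR). ZNF726 missed it without the unnumbered GFP high library at 24 h (adjusted p = 0.0565), that at 48 h (0.0602) or the GFP low library of set 1 at 24 h (0.0575). Downwards moved ZNF546 (-0.74), ZNF44 (-0.69), ZNF836 (-0.66), ZNF793 (-0.55) and ZNF441 (-0.55). ZNF836, at under 2.2 CPM in all libraries, kept its call without 3 of the 12 libraries only, those of GFP high set 2 at 24 h, GFP low set 2 at 24 h and GFP low set 1 at 48 h, and reached adjusted p = 0.114 without the GFP low library of set 1 at 24 h.

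From 48 to 72 h it moved upwards in 6 members and downwards in 1 of 174, beside 5.19% and 3.83% of all tested genes. Upwards moved ZNF574 (0.35), ZNF805 (0.28), ZNF808 (0.24), ZNF8 (0.21) and ZNF460 (0.20), and downwards ZNF566 (-0.29). ZNF8 missed the test without the GFP low library of set 2 at 72 h (adjusted p = 0.0562) and ZNF566 without the GFP high library of set 2 at 48 h (0.0559). ZNF574 missed it without 8 of the 12 libraries, with adjusted p of 0.0606 to 0.143, and ZNF805 without 9, with 0.053 to 0.102.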

How the results depend on the processing

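At 24 h the counts of members that rose and fell kept within 1.5 times under all alternatives. Without each library they were 81 to 88 and 6 to 9, beside 25.5% to 27.9% and 25.5% to 26.8% of all genes. With the library set as a block, 17 members fell at 48 h, 24 rose and 16 fell at 72 h, 38 rose and 5 fell from 24 to 48 h in GFP high cells, 24 rose from 48 to 72 h in GFP high cells, 23 rose and 16 fell in GFP low cells, and the GFP difference moved upwards in 10 members from 24 to 48 h and upwards in 14 and downwards in 3 from 48 to 72 h. Shares of all genes under the block stand with the results above. A fit with the block and length and GC trends removed was added after seeing the data. There 16 rose and 17 fell at 48 h, beside 15.2% and 19.3% of all genes. At 72 h 24 rose and 12 fell, beside 16.5% and 19.2%. In GFP high cells from 24 to 48 h 36 rose and 4 fell, beside 19.3% and 14.1%. In GFP low cells from 48 to 72 h 22 fell, beside 22.5%. The GFP difference moved upwards in 10 and downwards in 4 from 48 to 72 h, beside 9.95% and 8.79%. With only length and GC trends removed 19 fell in GFP low cells from 48 to 72 h, beside 19.9% of all genes. The GFP difference then moved downwards in 2 from 48 to 72 h, beside 6.44%. With the length trend alone removed 9 rose at 72 h and 1 fell from 24 to 48 h in GFP high cells, beside 11.9% and 7.84%. With only the groups compared 1 also fell from 24 to 48 h in GFP high cells, beside 9.29%. DESeq2 gave 9 that rose and 4 that fell at 72 h, beside 10.98% and 12.2% of all genes. In GFP high cells from 24 to 48 h it gave 15 and 1, beside 7.53% and 10.6%. From 48 to 72 h it gave 9 that rose in GFP high cells and 8 in GFP low ones, beside 12.8% and 11.3%. With no filter, which tested 225 members, 4 fell at 72 h and 15 rose from 24 to 48 h in GFP high cells. The shares of the 36938 genes then tested were 5.57% and 3.72%. The block moved no other count by over 1.5 times, and among named results it added calls for ZNF274 at 48 h and for ZNF574, ZNF600 and ZNF865 at 24 h.

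Without 1 library the counts that rose and fell were 6 to 10 and 2 to 7 at 48 h, 6 to 12 and 3 to 8 at 72 h, 13 to 20 and 0 to 1 from 24 to 48 h in GFP high cells, 8 to 12 and 64 to 72 in GFP low cells, 5 to 12 and 13 to 16 from 48 to 72 h in GFP high cells, and 6 to 9 and 10 to 13 in GFP low cells. Over all genes the shares were 7.89% to 10.1% and 9.29% to 10.98% at 48 h. At 72 h they were 9.32% to 11.5% and 10.04% to 12.4%. From 24 to 48 h they were 7.56% to 8.36% and 7.22% to 9.1% in GFP high cells. In GFP low cells they were 23.3% to 25.9% and 20.5% to 23.4%. From 48 to 72 h they were 10.6% to 11.7% and 10.7% to 12.6% in GFP high cells. In GFP low cells they were 10.3% to 11.2% and 10.1% to 12.1%. The GFP difference moved upwards in 5 to 8 and downwards in 57 to 73 members from 24 to 48 h. Over all genes it did so in 20.5% to 22.6% and 17.4% to 20.6%. From 48 to 72 h it moved upwards in 3 to 6 and downwards in 0 to 1 members, beside 3.43% to 4.83% and 2.75% to 3.80%.

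Of 182 named results 126 kept direction and side of the threshold under all 8 alternatives other than leaving out a library, and 129 without each library. Turned in sign were ZNF581 at 24 h (0.027) and in its change to 48 h (-0.032) and ZNF428 at 24 h (0.22) with the length trend removed, and with length and GC trends removed ZNF428 (0.093, or 0.085 with the block), SETDB1 (-0.013, or -0.016 with the block) and EHMT2 (-0.0041, or -0.00200 with the block) at 24 h, and MORC2 (-0.0026) with the block. The cause was not tested. Depth limits the 73 untested members and those under 1 CPM.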
